A study of Rattus norvegicus with 12 samples.

Results

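The genes described here encode the sensors of the unfolded protein response, a transcription factor whose mRNA one sensor cuts, and the proteases that activate the ATF6-type sensors. They were taken by symbol from the deposited count table and are Ern1, Xbp1, Atf6, Atf6b, Eif2ak3, Mbtps1 and Mbtps2, which makes 7 of its 34034 genes. All 7 passed the filter on low counts (more than 1 CPM, counts scaled to a common library total, in at least 2 libraries), as did 14324 genes in all, and their counts ran from 113 to 5635 per library. mRNA was sequenced from INS-1E, an established rat insulinoma line that serves as a β-cell model, in 12 libraries. Every group was of the wild-type genotype by its label, and each of the 4 groups held 3 biological replicates, although how their cultures were separated is not stated in the labels, so p-values measure the spread between these libraries. Untreated cells received no cytokine. IL-1βlow cells were preconditioned with IL-1β at 10 pg/ml for 72 h, with fresh cytokine each 24 h in the same medium. CYT cells received IL-1β at 100 pg/ml together with IFN-γ at 5 ng/ml for 16 h, without preconditioning. IL-1βlow + CYT cells went through the preconditioning, a medium change and then the same challenge.

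The endoplasmic reticulum (ER) folds secreted and membrane proteins, and in β-cells most of that load is proinsulin. When unfolded protein builds up in its lumen, the chaperone BiP (Hspa5) leaves 3 kinds of membrane sensor. IRE1α (Ern1) is a kinase and RNase that cuts Xbp1 mRNA, so that it is rejoined into the message for an active transcription factor. ATF6 (Atf6) and its relative ATF6β (Atf6b) travel to the Golgi, where the site-1 protease (Mbtps1) and then the site-2 protease (Mbtps2) release their transcription factor domains. PERK (Eif2ak3) phosphorylates the translation factor eIF2α, which lowers overall protein synthesis and favours translation of ATF4. All of these switches act on protein or on splicing. The counts per gene measure mRNA level, and they do not separate spliced from unspliced Xbp1.

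Total counts ran from 15812640 to 20246806 per library. The ribosomal RNA precursor Rn45s held 6.89 to 10.3% of them in untreated and 8.33 to 9.85% in IL-1βlow libraries. In CYT libraries its share was 7.87 to 9.36%, and in IL-1βlow + CYT libraries 9.96 to 11.1%. The 7 β-cell markers checked (Ins1, Ins2, Iapp, Pdx1, Nkx6-1, Mafa and Slc2a2) were all expressed. Their summed level was 32916 to 39313 CPM in untreated, 28758 to 33749 CPM in IL-1βlow, 10636 to 10935 CPM in CYT and 15474 to 20066 CPM in IL-1βlow + CYT libraries. Of 9 markers of other cell types only the α-cell hormone Gcg passed the filter, and the summed level of the 9 was 185 to 367 CPM in untreated, 155 to 259 CPM in IL-1βlow, 25.0 to 64.1 CPM in CYT and 74.1 to 152 CPM in IL-1βlow + CYT libraries. The acinar markers Cpa1 and Prss1 and the leukocyte marker Ptprc were at 0 counts in all 12 libraries, and the other 5 had at most 13 counts in any library. With CYT 6 of the 7 β-cell markers (all but Slc2a2) passed as lower in the test described below, beside 24.5% of all genes. With preconditioning alone 1 of the 7 passed as lower, where 0.503% of all genes passed in either direction. Ins2 was at 4779 to 4987 CPM in IL-1βlow and 7465 to 9089 CPM in untreated libraries. The share of counts from mitochondrial mRNA was also lower with CYT, at 1.69 to 2.67% beside 3.30 to 4.10% in untreated, 2.24 to 4.25% in IL-1βlow and 2.81 to 3.92% in IL-1βlow + CYT libraries. Both moved in the same libraries as the sensors below, and their part in those values was not tested. In bulk RNA, fewer cells of a type and less RNA per cell cannot be told apart.

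Promoter sequences show which of these genes carry the binding site of the response itself. The ER stress response element (ERSE) consists of CCAAT and CCACG with 9 bases of any kind between them, where the CCAAT end binds NF-Y and the CCACG end is the contact of ATF6 and XBP1. RefSeq promoters of the assembly GRCr8, from 250 bases before to 50 after the start of the entry's transcript, were searched on both strands. Of the 7 genes 5 matched an entry (Xbp1, Atf6b, Eif2ak3, Mbtps1 and Mbtps2), while Ern1 and Atf6 had none. The ERSE was present in 21 of 27457 promoters (0.0765%), and Xbp1 was the only one of the 5 to hold it. The other 6 genes below are ER chaperones and cofactors from the lists described later and are shown because they share the element with Xbp1. The element is written in its own direction with its 2 conserved ends in capitals and 5 flanking bases on each side.
Xbp1: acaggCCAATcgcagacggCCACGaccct
Hspa5: gttcaCCAATcggaggcctCCACGacggg
Hsp90b1: acccaCCAATcgtgcctcaCCACGcactc
Calr: ctgggCCAATcagggtcgaCCACGcgttg
Canx: cttgtCCAATcatcacgctCCACGaagaa
Creld2: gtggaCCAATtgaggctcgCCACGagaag
Dnajc3: caaagCCAATcagcgccaaCCACGaccca
The copy in Xbp1 lies 65 bases before the gene start, and that in Hspa5, the textbook example, lies 43 bases before it. Hsp90b1 holds a further copy 176 bases before its start.

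The promoters of Xbp1 and Eif2ak3 are printed in full because both genes were lower after preconditioning plus CYT than after CYT alone. Ern1 and Atf6 fell by more there but had no promoter entry, so no motif was searched for in them. The Xbp1 sequence is chr14:84604373-84604622 on the plus strand of GRCr8, the 250 bases before its start, with the ERSE in capitals. The Eif2ak3 sequence is chr4:104363622-104363837 on the plus strand, the 216 bases of its window that precede the annotated gene, with each CCAAT box (either strand, so CCAAT or ATTGG) in capitals.
Xbp1: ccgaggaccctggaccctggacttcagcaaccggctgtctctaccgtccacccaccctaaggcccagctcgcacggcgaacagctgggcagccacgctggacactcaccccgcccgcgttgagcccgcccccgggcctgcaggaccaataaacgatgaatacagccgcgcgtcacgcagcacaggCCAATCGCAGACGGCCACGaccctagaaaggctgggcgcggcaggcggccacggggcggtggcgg
Eif2ak3: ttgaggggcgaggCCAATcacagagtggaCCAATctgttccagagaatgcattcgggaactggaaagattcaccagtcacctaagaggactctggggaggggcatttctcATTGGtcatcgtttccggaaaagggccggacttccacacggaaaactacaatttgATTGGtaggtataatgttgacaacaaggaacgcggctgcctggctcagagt
The Eif2ak3 stretch holds 4 CCAAT boxes but no CCACG partner at the ERSE spacing. A CCAAT box alone was in 37.7% of all promoters. Among the 5 matched genes, none held the C/EBP-ATF response element bound by ATF4 (TGATGNAA, 3.82% of promoters) or the unfolded protein response element core (TGACGTGG, 0.637%). Nor did any hold the interferon-γ activated site (TTCNNNGAA, 8.68%) or the related ERSE-II (ATTGG and CCACG with 1 base between them, 0.0546%). One, Mbtps1, held an NF-κB motif (4.16% of promoters).

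Ern1, the gene of the IRE1α sensor, rose with CYT, and its level overlapped the untreated level when the cells had been preconditioned. Its TMM-normalised level (CPM scaled by trimmed mean of M-values) was 51.9, 58.001 and 55.4 CPM in untreated libraries 1 to 3 and 242, 290.4 and 288 CPM in CYT libraries. In IL-1βlow libraries it was 52.6, 55.5 and 49.4 CPM, and in IL-1βlow + CYT libraries 51.0, 63.5 and 59.1 CPM. The CYT libraries stood far above all others, and the other 3 groups overlapped each other. Throughout, a gene was said to rise, fall or pass where edgeR's quasi-likelihood test gave an adjusted p under 0.01, adjusted by Benjamini-Hochberg over all 14324 genes. Ern1 rose 4.97-fold with CYT against untreated cells, a log2 fold change of 2.31 (SE 0.10, adjusted p = 2.35e-10). Only 4.90% of the genes tested had a larger absolute change there. It fell with preconditioning plus CYT against CYT alone (log2 fold change -2.24, SE 0.10, adjusted p = 5.36e-09), and 1.93% of genes had a larger one. Between IL-1βlow + CYT and untreated cells the difference was 0.07 on the log2 scale, with a 95% interval from -0.14 to 0.29 (adjusted p = 0.654).

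Xbp1, the message that IRE1α cuts, did not pass with CYT and was lowest after preconditioning plus CYT. It was at 188, 197 and 194 CPM in untreated, 178, 197 and 192 CPM in IL-1βlow, 195, 243 and 231 CPM in CYT and 158, 155 and 141 CPM in IL-1βlow + CYT libraries. The IL-1βlow + CYT libraries lay below all 9 others, and CYT library 1 sat inside the untreated range. With CYT against untreated cells the log2 fold change was 0.21 (SE 0.09, adjusted p = 0.0535), and without CYT library 1 it was 0.33 with an adjusted p of 0.00335. Xbp1 fell between CYT and IL-1βlow + CYT cells, by 0.55 on the log2 scale or 31.9% (SE 0.09, adjusted p = 0.000135). Against untreated cells, IL-1βlow + CYT gave -0.35 (SE 0.09, adjusted p = 0.0102), just short of the threshold, and 10 of 20 alternative settings passed it, the replicate block among them (adjusted p = 0.00251).

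Because Ern1 and Xbp1 are counted in the same library, the ratio of their raw counts needs no scaling between libraries. It was 0.275, 0.294 and 0.286 in untreated, 0.295, 0.282 and 0.257 in IL-1βlow, 1.24, 1.20 and 1.25 in CYT, and 0.322, 0.409 and 0.419 in IL-1βlow + CYT libraries. The ratio depends on transcript length, so only its change between groups can be read. It was 4.31-fold higher in CYT than in untreated libraries and 1.33-fold higher in IL-1βlow + CYT than in untreated libraries, with no overlap in either case. Each comparison gave p = 0.1 in the two-sided exact permutation test, the smallest that 3 libraries against 3 allow.

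Atf6 and Atf6b, the paralogous sensors that are cut in the Golgi, differed in their values after CYT, where Atf6 rose and Atf6b did not pass. Atf6 was at 77.9, 75.9 and 78.8 CPM in untreated, 80.0, 74.3 and 77.5 CPM in IL-1βlow, 147, 154 and 159.7 CPM in CYT and 68.6, 72.0 and 75.7 CPM in IL-1βlow + CYT libraries. Its CYT libraries stood alone, and the IL-1βlow + CYT libraries were just below the untreated ones. Atf6 rose 1.98-fold with CYT (log2 fold change 0.98, SE 0.07, adjusted p = 3.83e-08). It fell 2.13-fold between CYT and IL-1βlow + CYT cells (log2 fold change -1.09, SE 0.07, adjusted p = 6.21e-08). Against untreated cells, IL-1βlow + CYT gave -0.11 (95% interval -0.26 to 0.05, adjusted p = 0.330).

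Atf6b was at 212, 227 and 234 CPM in untreated, 217, 254 and 213 CPM in IL-1βlow, 204, 176 and 141 CPM in CYT and 222, 225 and 183 CPM in IL-1βlow + CYT libraries. The CYT libraries lay below the untreated ones but spread widely, with a coefficient of variation of 18.1% against 4.97%. With CYT the log2 fold change was -0.37 (SE 0.12, adjusted p = 0.0181), which did not pass, while 4 of 20 alternative settings did, among them the study's exactTest (adjusted p = 0.00927) and the replicate block (adjusted p = 0.00363). Without CYT library 3 it was -0.21 (adjusted p = 0.128). In IL-1βlow + CYT against CYT cells it was 0.28 (SE 0.12, adjusted p = 0.0767). The ratio of Atf6 to Atf6b counts within a library was 0.347 ± 0.018 (SD, n = 3) in untreated and 0.910 ± 0.209 in CYT libraries. In IL-1βlow + CYT libraries it was 0.347 ± 0.057. The increase with CYT was 2.58-fold (exact permutation test, p = 0.1, the smallest possible), and CYT library 3 had both the highest Atf6 and the lowest Atf6b level of its group.

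**Figure D1:**
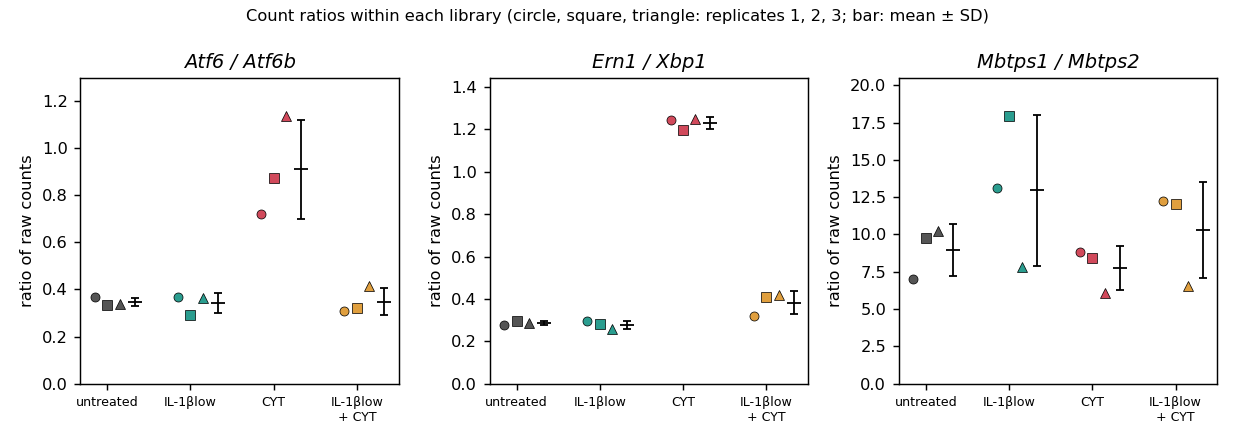
Ratios of raw counts within each library for Atf6 over Atf6b, Ern1 over Xbp1 and Mbtps1 over Mbtps2, on linear axes that start at 0. Points are libraries (circle, square and triangle for replicates 1, 2 and 3) and bars give the mean ± SD of each group of 3. The first pair of ratios is higher in the CYT libraries than in any other library, and the protease ratios of all 4 groups overlap.

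Eif2ak3, the gene of the PERK sensor, was at 33.9, 34.4 and 43.0 CPM in untreated, 33.2, 33.1 and 41.3 CPM in IL-1βlow, 43.4, 47.8 and 65.5 CPM in CYT and 29.9, 28.8 and 36.3 CPM in IL-1βlow + CYT libraries. Replicate 3 was the highest library in all 4 groups. The CYT libraries lay above the untreated ones by a small margin, 43.4 against 43.0 CPM at the nearest pair. The log2 fold change with CYT was 0.49 (SE 0.16, adjusted p = 0.0136), and 9 of 20 alternative settings passed the threshold, with adjusted p from 4.04e-05 to 0.0645. With the replicate block it was 0.48 (adjusted p = 0.00011), and without CYT library 3 it was 0.33 (adjusted p = 0.0645). Eif2ak3 fell by 39.5% between CYT and IL-1βlow + CYT cells (log2 fold change -0.72, SE 0.16, adjusted p = 0.00165). The ratio of Ern1 to Eif2ak3 counts went from 1.502 ± 0.20 in untreated to 5.35 ± 0.86 in CYT libraries (SD, n = 3, exact permutation test, p = 0.1, the smallest possible).

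The proteases of the Golgi passed in none of the comparisons. Mbtps1 (site-1 protease) ranged from 92.2 to 124 CPM over all 12 libraries, with group means of 111 ± 6.13 in untreated, 111 ± 11.5 in IL-1βlow, 114 ± 7.03 in CYT and 102 ± 9.07 CPM in IL-1βlow + CYT cells (SD, n = 3). All groups overlapped. Its log2 fold change with CYT was 0.04, with a 95% interval from -0.16 to 0.24 (adjusted p = 0.719), so the interval leaves out a change of the size seen for Atf6. Mbtps2 (site-2 protease) had the lowest counts of the 7 genes, 113 to 357 per library. It was at 14.8, 11.7 and 11.2 CPM in untreated, 7.95, 6.93 and 13.3 CPM in IL-1βlow, 12.4, 14.5 and 18.2 CPM in CYT and 8.51, 9.15 and 14.03 CPM in IL-1βlow + CYT libraries. The groups overlapped throughout, and replicate 3 was the highest in 3 of 4 groups. Its intervals were wide, from -0.26 to 0.78 on the log2 scale for CYT (adjusted p = 0.372), so a moderate change was not detectable at this depth and spread.

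**Figure D2:**
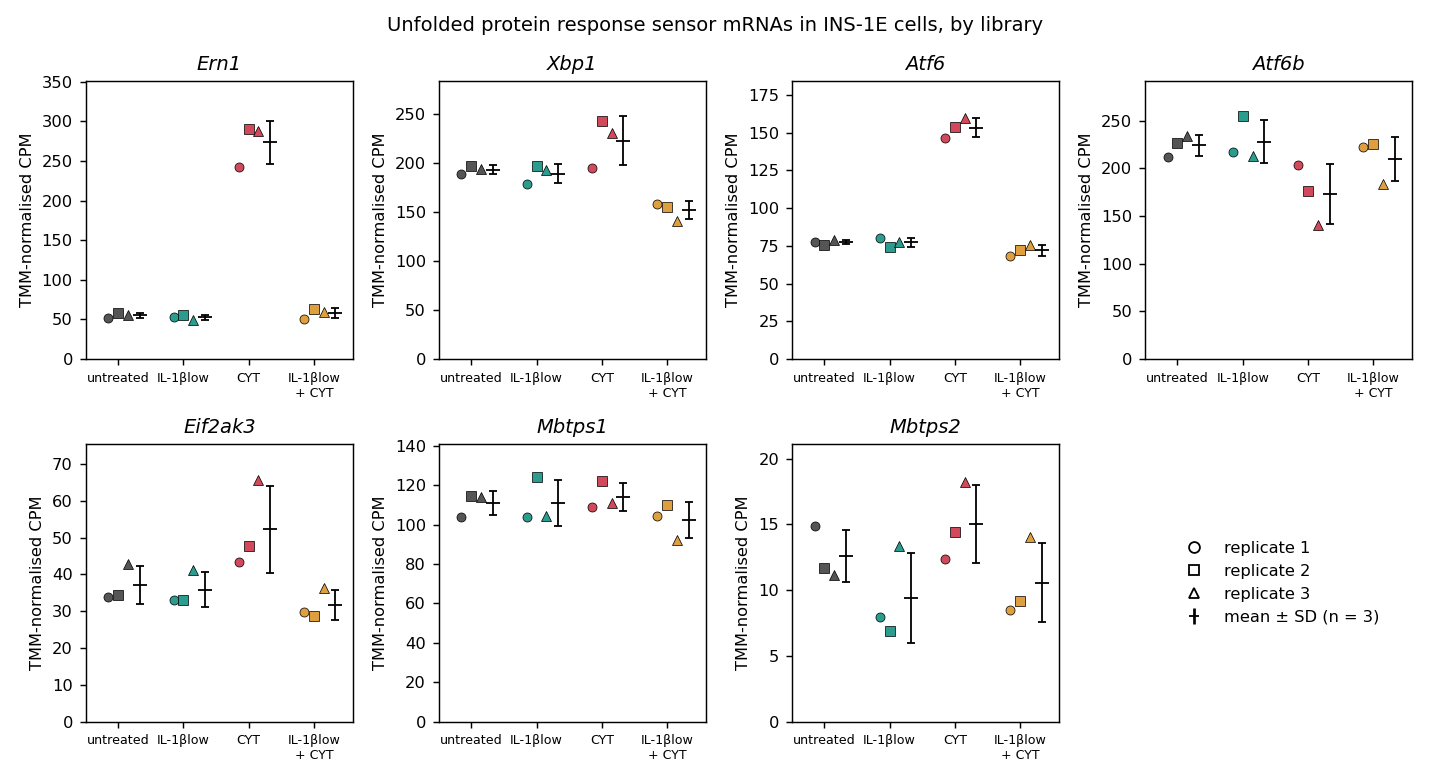
TMM-normalised CPM of the 7 genes in every library, on linear axes that start at 0. Points are libraries (circle, square and triangle for replicates 1, 2 and 3) and bars give the mean ± SD of each group of 3. Ern1 and Atf6 stand apart in the CYT libraries, Xbp1 is lowest in the IL-1βlow + CYT libraries, and the groups of Mbtps1 and Mbtps2 overlap.

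In the comparison of CYT with untreated cells, 2 of the 7 genes passed, both higher (Ern1 and Atf6). Over all genes tested 49.7% passed, and 25.2% passed as higher, so the count of the 7 that passed was not above the background. With the fold change minimum of the study added (absolute log2 fold change over 1), only Ern1 remained, against 21.6% of all genes. Atf6, at 0.98, sat just under that minimum. The libraries of 4 of the 7 genes did not overlap between these groups, where 69.3% of all genes did not. The median of the 7 log2 fold changes was 0.26, beside -0.04 over all genes.

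None of the 7 genes passed with preconditioning alone in edgeR's quasi-likelihood test (IL-1βlow against untreated cells), none had an unadjusted p under 0.05, and DESeq2 and edgeR's exactTest called 0 each. The background there was 0.503% of genes at the adjusted threshold, and the share with an unadjusted p under 0.05 was not counted. The fitted differences ran from -0.42 (Mbtps2, 95% interval -0.96 to 0.11) to 0.02 (Atf6b). For Ern1 the difference was -0.07 (-0.28 to 0.15), for Xbp1 -0.03 (-0.22 to 0.16), for Atf6 -0.0045 (-0.16 to 0.15) and for Eif2ak3 -0.05 (-0.39 to 0.29). The libraries of all 7 genes overlapped between both groups, while 23.7% of all genes had no overlap.

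Between CYT and IL-1βlow + CYT cells, 4 of the 7 genes passed and all 4 were lower after preconditioning (Ern1, Atf6, Eif2ak3 and Xbp1). In that comparison 36.3% of all genes passed and 19.2% passed as lower. Ern1 and Atf6 also exceeded the fold change minimum of 1, as did 12.5% of all genes. The libraries of 4 of the 7 did not overlap, beside 54.4% of all genes. The median over the 7 genes was -0.55 and over all genes 0.02. This comparison and that of CYT with untreated cells share the CYT libraries, so a high value there enters both.

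IL-1βlow + CYT cells were also set against the groups without the challenge. Against untreated cells 0 of the 7 genes passed in edgeR's quasi-likelihood test, where 13.8% of all genes did. Xbp1 alone had an unadjusted p under 0.05 and was called by both DESeq2 and exactTest. The libraries of Xbp1 and Atf6 lay below the untreated ones, where 37.3% of all genes had no overlap. Against IL-1βlow cells none passed either, with 8.20% of genes called. There Xbp1 again was the 1 gene with an unadjusted p under 0.05 (log2 fold change -0.32, SE 0.09, adjusted p = 0.0261), and DESeq2 and exactTest called 0. With the replicate number as a block it passed (-0.32, adjusted p = 0.00732). Its libraries alone did not overlap between those groups, beside 27.1% of all genes. The response to CYT of preconditioned cells was thus 0.14 for Ern1 and -0.10 for Atf6 on the log2 scale, with 95% intervals of -0.07 to 0.36 and -0.26 to 0.05.

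The difference between the CYT responses with and without preconditioning was tested as an interaction. It passed for Ern1 (-2.17, SE 0.14, adjusted p = 4.13e-07), Atf6 (-1.09, SE 0.10, adjusted p = 5.57e-06) and Xbp1 (-0.53, SE 0.12, adjusted p = 0.00470), that is for 3 of the 7 genes, all negative. Over all genes 22.6% passed, and 12.5% passed with a negative sign. Ern1 and Atf6 also exceeded the fold change minimum, as did 10.7% of all genes. For Xbp1 the call was lost without untreated library 1 (adjusted p = 0.0101), without untreated library 3 (adjusted p = 0.0120) or without CYT library 2 (adjusted p = 0.0145). Eif2ak3 gave -0.68 (SE 0.22, adjusted p = 0.0288), short of the threshold. It passed by DESeq2 (-0.71, adjusted p = 0.00942), without the filter on low counts (-0.72, adjusted p = 0.000557) and with the replicate number as a block (-0.66, adjusted p = 0.000394), which made 4 of 7 genes. Of all 14324 genes 3236 passed in the main fit, 3920 by DESeq2 and 4560 with the block. Without the filter 3977 of 24221 genes did. Atf6b gave 0.25 (adjusted p = 0.276), Mbtps1 -0.16 (adjusted p = 0.365) and Mbtps2 -0.09 (adjusted p = 0.868).

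**Figure D3:**
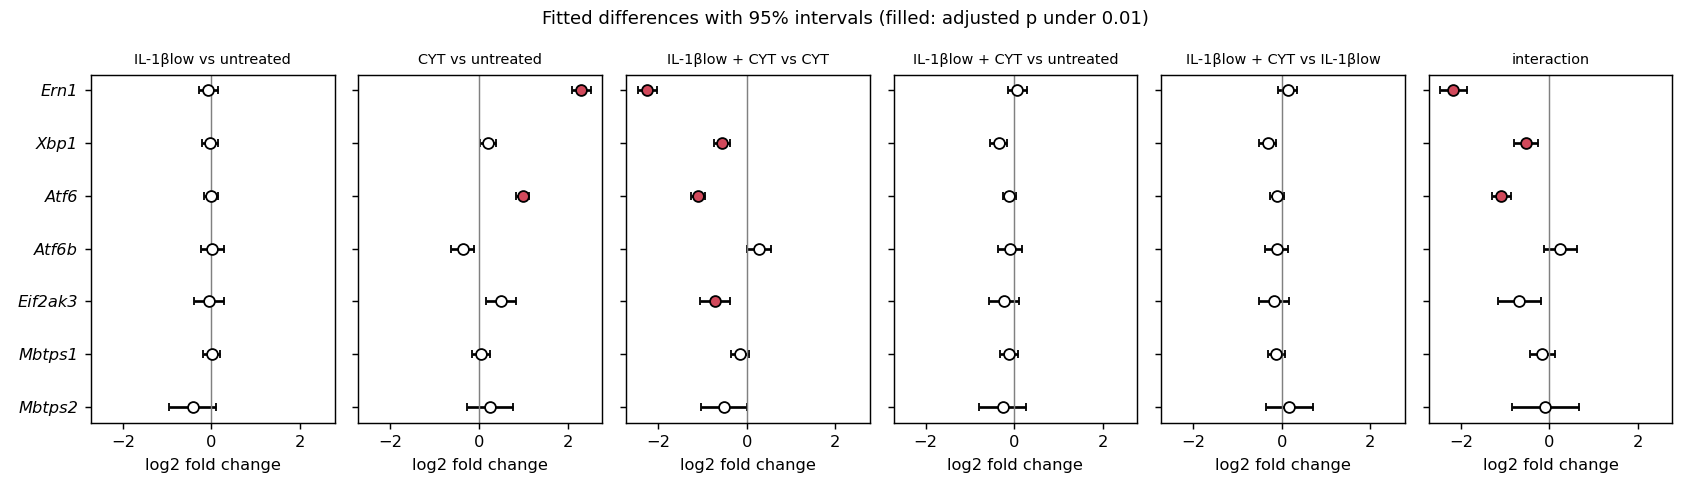
Fitted log2 fold changes of the 7 genes (rows) in each comparison (panels), with 95% intervals from edgeR's quasi-likelihood fit over 12 libraries. Filled points have an adjusted p under 0.01, as Ern1 and Atf6 do in the panel of CYT against untreated cells and 4 genes do in that of IL-1βlow + CYT against CYT. In both panels of preconditioned cells against cells without the challenge, and in that of IL-1βlow alone, no point is filled.

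The genes around the sensors were grouped in lists by role, and each count is to be read beside the share of all genes tested. With CYT 25.2% of all genes passed as higher and 24.5% as lower, and their median was -0.04. In IL-1βlow + CYT against CYT these shares were 17.1% and 19.2%, with a median of 0.02. In IL-1βlow + CYT against untreated they were 8.24% and 5.53%, with a median of -0.0050. Among eIF2α, its other kinases, its phosphatase subunits and the co-chaperone Dnajc3, 3 of 7 rose and 1 fell with CYT, with a list median of -0.16, so the number that passed was near the 49.7% of all genes. Ppp1r15a (GADD34), the inducible subunit that dephosphorylates eIF2α, rose from 29.2 ± 1.07 to 274 ± 39.7 CPM (SD, n = 3). That was a log2 fold change of 3.23 (SE 0.12, adjusted p = 3.52e-11). The heme-regulated kinase Eif2ak1 (0.38, adjusted p = 0.00167) and the constitutive subunit Ppp1r15b (0.32, adjusted p = 0.00474) rose slightly. Dnajc3, a co-chaperone of BiP that also inhibits PERK, fell (-1.27, adjusted p = 6.93e-06). The kinases Eif2ak2 (-0.24, adjusted p = 0.344) and Eif2ak4 (-0.16, adjusted p = 0.187), which answer to double-stranded RNA and to amino acid lack, did not pass. In IL-1βlow + CYT against CYT cells 2 of the 7 fell, Ppp1r15a (-2.88, adjusted p = 1.43e-09) and Ppp1r15b (-0.40, adjusted p = 0.00145).

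ATF4 and its targets, the transcriptional output downstream of PERK and the other eIF2α kinases, all rose. All 9 of 9 passed as higher with CYT (median log2 fold change 3.16), and all 9 fell between CYT and IL-1βlow + CYT cells (median -3.03). The factor Atf4 averaged 169 ± 11.2 CPM in untreated cells, 699 ± 27.5 CPM after CYT and 191 ± 18.7 CPM when preconditioning came first. Ddit3, the pro-apoptotic factor CHOP, went from 13.02 ± 1.42 to 299 ± 29.9 CPM and was at 28.0 ± 7.90 CPM after preconditioning plus CYT. The pseudokinase Trib3 changed most in this list with CYT, by a log2 fold change of 6.08 (SE 0.35, adjusted p = 3.03e-09). Ddit3, the stress factor Atf3 and the glutathione-degrading enzyme Chac1 followed at 4.52, 4.50 and 4.38. Against untreated cells, 3 of the 9 still passed as higher in IL-1βlow + CYT cells, namely Trib3 (1.96, adjusted p = 0.000868), Chac1 (1.24, adjusted p = 0.000134) and Ddit3 (1.11, adjusted p = 0.000292). Over all genes 8.24% passed as higher there. Of the 7 genes described here 0 did, and for those 7 that was near the background. The C/EBP-ATF response element was in the promoters of Trib3, Chac1 and Nupr1 among the 8 of 9 genes matched.

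ER chaperones and degradation factors, many of them targets of ATF6, mostly fell in the cells in which Atf6 rose. With CYT 11 of 16 fell and 2 rose, beside 24.5% lower and 25.2% higher over all genes, and the median was -0.60. The chaperone Hspa5 (BiP) went from 1636 ± 182 to 1036 ± 44.9 CPM (log2 fold change -0.66, SE 0.11, adjusted p = 0.000109). Hsp90b1 (GRP94) fell by 1.16, Hyou1 (ORP150) by 1.07 and the chaperone cofactor Creld2 by 1.47 on the log2 scale, with adjusted p of 2.65e-06, 3.96e-06 and 1.04e-07. The exceptions that rose were Herpud1, a factor of ER-associated degradation (1.49, adjusted p = 2.85e-07), and the disulfide isomerase P4hb (0.62, adjusted p = 0.000210). Of the 13 chaperone promoters matched, 5 held the ERSE (Hspa5, Hsp90b1, Calr, Canx and Creld2) and 3 the ERSE-II (Hyou1, Dnajb11 and Herpud1).

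Most chaperones were low after preconditioning plus CYT as well. In IL-1βlow + CYT against untreated cells 10 of the 16 were lower and none was higher, with a median of -0.61, beside 5.53% lower and 8.24% higher over all genes. Hspa5 was at 891 ± 32.2 CPM there (log2 fold change -0.88, SE 0.11, adjusted p = 3.02e-05). Between CYT and IL-1βlow + CYT cells 4 fell and 1 rose, with a median of 0.05, and that number was near the 36.3% of all genes that passed. There Herpud1 fell by 1.94, Sel1l by 0.67, P4hb by 0.57 and Sdf2l1 by 0.52 on the log2 scale, and Creld2 rose by 0.59 (adjusted p = 0.000899). The interaction passed for 1 of the 16, Herpud1 (-2.004, adjusted p = 4.95e-06), whereas it was -0.14 for Hspa5 (adjusted p = 0.505).

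Of 11 genes known as XBP1 targets, which serve translocation into the ER, transport to the Golgi and degradation, 6 fell and 1 rose with CYT (median -0.49), beside 24.5% lower and 25.2% higher over all genes. Edem1, which hands misfolded glycoproteins to degradation, went from 315 ± 3.16 to 109 ± 9.77 CPM (log2 fold change -1.54, adjusted p = 4.57e-09) and was at 222 ± 14.002 CPM after preconditioning plus CYT. The translocon subunit Sec61b (-1.06, adjusted p = 1.96e-06) and the translocon-associated Ssr1 (-0.68, adjusted p = 0.000239) fell as well. The COPII coat gene Sec31a rose (1.04, adjusted p = 6.66e-07). Between CYT and IL-1βlow + CYT cells Edem1 (1.03, adjusted p = 7.57e-07) and Sec61b (0.58, adjusted p = 0.000697) rose, while Dnajb9 (-1.05, adjusted p = 0.00126) and Sec31a (-0.83, adjusted p = 1.16e-05) fell. Dnajb9, an ER co-chaperone that binds IRE1α, averaged 22.4 ± 5.47 CPM after CYT alone and 10.9 ± 2.47 CPM after preconditioning plus CYT.

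Among the partners of IRE1α, 7 of 8 were tested, and 2 rose and 3 fell with CYT (median -0.29), where 49.7% of all genes passed. The adaptor Traf2, which links IRE1α to kinase signalling, rose from 36.7 ± 1.91 to 136 ± 20.9 CPM (log2 fold change 1.88, SE 0.13, adjusted p = 1.52e-08). The ligase that rejoins cut Xbp1 mRNA, Rtcb, rose by 0.44 (adjusted p = 0.000658), while its cofactor Zbtb8os fell by 0.42 (adjusted p = 0.00260) and the translocation factor Sec63 by 0.62 (adjusted p = 0.00151). After preconditioning plus CYT against CYT alone, Traf2 (-1.16, adjusted p = 3.89e-06) and Rtcb (-0.36, adjusted p = 0.00438) fell. There Zbtb8os (0.62, adjusted p = 0.000185) and the phosphatase Ptpn1 (0.61, adjusted p = 0.000164) rose. Ern2, the gene of the gut isoform IRE1β, had at most 1 count in any library. Of 6 known substrates of IRE1α-dependent RNA decay only Hgsnat and Bloc1s1 were expressed. Hgsnat rose with CYT (0.66, adjusted p = 3.70e-05) and fell after preconditioning plus CYT against CYT (-0.57, adjusted p = 0.000195), and Bloc1s1 was at 0.30 with CYT (adjusted p = 0.0363).

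The site-1 and site-2 proteases also cut the sterol factors and the CREB3 family, and of 11 such substrates and their escorts 9 were tested. With CYT 3 rose and 3 fell (median 0.03), where 49.7% of all genes passed. Creb3l1, the gene of the ER-stress transducer OASIS, went from 17.4 ± 0.659 to 55.2 ± 6.80 CPM (log2 fold change 1.66, SE 0.12, adjusted p = 4.22e-08) and was at 14.9 ± 2.02 CPM in IL-1βlow + CYT cells. The sterol escort Scap (0.87, adjusted p = 7.48e-06) and the retention factor Insig2 (0.78, adjusted p = 0.000114) rose, and Creb3l2 fell (-0.48, adjusted p = 0.000664). Between CYT and IL-1βlow + CYT cells Creb3l1 (-1.90, adjusted p = 5.80e-08) and Insig2 (-0.53, adjusted p = 0.00325) fell, and Srebf2 (0.40, adjusted p = 0.00377) and Creb3l2 (0.34, adjusted p = 0.00945) rose. Scap stayed above the untreated level in IL-1βlow + CYT cells (0.90, adjusted p = 1.91e-05). With preconditioning alone, none of the 61 tested genes of these 7 lists passed in edgeR's quasi-likelihood test, and 15 had an unadjusted p under 0.05. How many of all genes did was not counted, so that number cannot be set against a background.

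**Figure D4:**
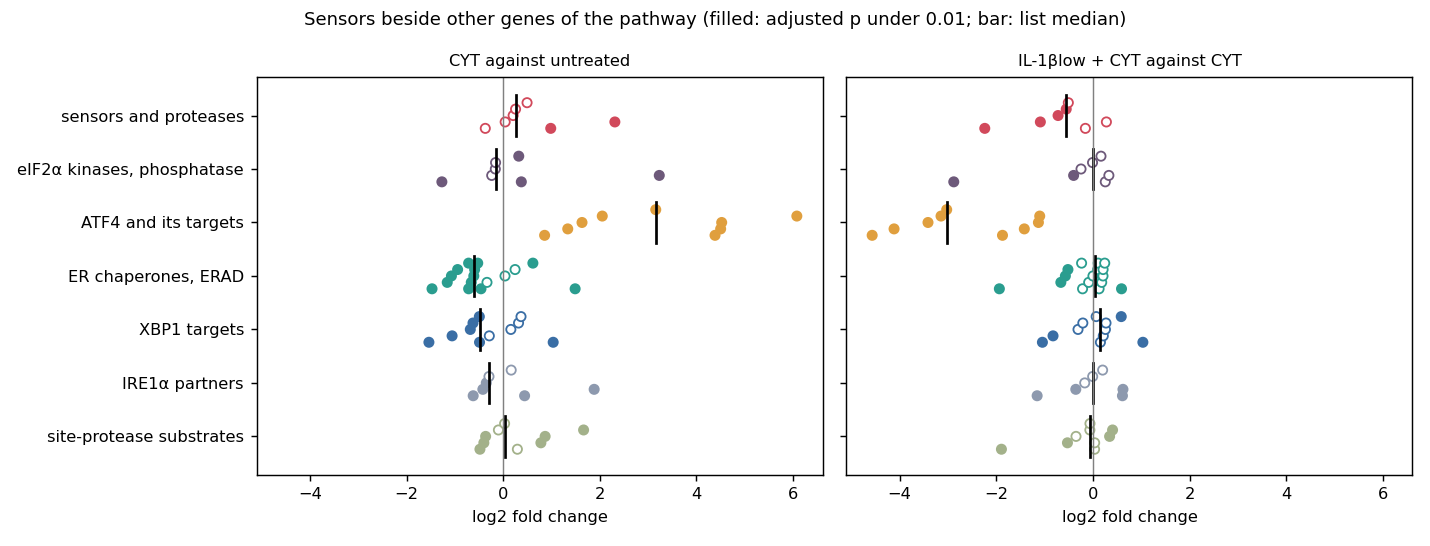
Log2 fold changes of the sensors and proteases beside 6 other gene lists of the pathway, for CYT against untreated cells (left) and IL-1βlow + CYT against CYT (right). Each point is a gene, filled where the adjusted p was under 0.01, and the bar is the list median. All 9 points of ATF4 and its targets lie to the right of 0 in the left panel and to the left of 0 in the right panel, whereas 11 of 16 chaperones passed as lower with CYT.

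**Figure D5:**
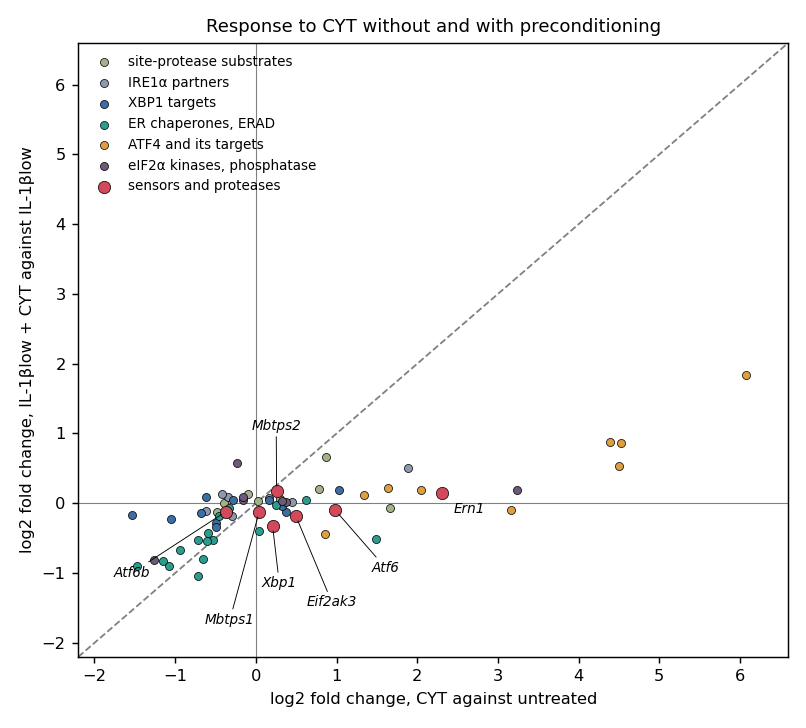
Log2 fold change with CYT in cells without preconditioning (x axis) against that in preconditioned cells (y axis), for the same genes. On the dashed line both responses are equal. Ern1 lies at 2.31 on the x axis and 0.14 on the y axis, and Atf6 at 0.98 and -0.10, whereas the chaperone gene Hspa5 lies at -0.66 and -0.80.

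For each sensor the 3 genes with the closest profile were sought among 11490 expressed genes, by Pearson correlation of log2 CPM over the 12 libraries. These values describe profiles that share their libraries and group means. The profile of Ern1 was closest to those of Atf4 (r = 0.998), the cationic amino acid transporter gene Slc7a1 (0.997) and Ppp1r15a (0.996). That of Atf6 was closest to Stambpl1 (0.993), Srsf4 (0.992) and Otub2 (0.991), which encode a deubiquitinase, a splicing factor and another deubiquitinase. Xbp1 was nearest to Kdelr3, a receptor that returns chaperones to the ER (0.945), then to Atg13 (0.940) and Bambi (0.940). All 3 fell between CYT and IL-1βlow + CYT cells, by 1.17, 0.46 and 0.96 on the log2 scale, where 19.2% of all genes passed as lower. They were picked for likeness to Xbp1 in these same libraries, so a shared fall follows from the choice and is no separate evidence. The nearest to Eif2ak3 were Spire1 (0.961), Wdr43 (0.958) and Zfp27 (0.955), and to Atf6b Rab4b (0.975), Sez6 (0.962) and Slc7a4 (0.961). For the proteases they were Ascc2 (0.936), Nomo1 (0.915) and Slc39a11 (0.910) with Mbtps1, and Tmem117 (0.978), Hectd2 (0.964) and Azin1 (0.960) with Mbtps2.

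The strand setting of the counting is not given in the sources used here, so reads from overlapping genes cannot be told apart. In RefSeq's GRCr8 annotation Xbp1, Eif2ak3 and Mbtps1 overlap no other gene. Atf6 overlaps LOC100911728 (137 to 268 counts per library) and LOC120096368 (at most 2 counts). Atf6b overlaps LOC120098978 (at most 10 counts), Mbtps2 overlaps Yy2 (14 to 66 counts) and Ern1 overlaps the pseudogene Rps10-ps6. Of the list genes named above, Ddit3, Atf3, Eif2ak1, Eif2ak2, Ern2, Dnajc3, Creld2, Herpud1, Sel1l, Dnajb9, Srebf2, Canx and Hgsnat overlap an annotated gene too.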

How the data were processed

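RNA of INS-1E cells was sequenced from polyA-selected libraries in 4 groups of 3. Per the labels and the study's methods, the authors ran FastQC and rfastp on the reads, used Rsubread for alignment (genome mRatBN7.2) and featureCounts for counting per gene. The deposited values are raw counts, not normalised, for 34034 genes, of which 9813 had no counts. Groups were taken from the sample labels. Genes with over 1 CPM in at least 2 libraries (14324) entered 1 edgeR 4.0.16 quasi-likelihood fit over 12 libraries (R 4.3.3, TMM factors, no covariate, 8 residual degrees of freedom), with Benjamini-Hochberg adjustment over all of them and a threshold of 0.01. The study's fold minimum was an absolute log2 fold change of 0.6 for IL-1βlow against untreated and 1 elsewhere. The study's own exactTest, DESeq2 1.42.0, other scalings and filters, a replicate block, a threshold of 0.05 and leaving out each library were alternatives. In simulated counts for CYT against untreated (13888 genes), 94% of genes changed by 1.5 and 55% of those changed by 0.7 on the log2 scale were recovered. Only 100 genes were changed at each size and no replicate effect was drawn, whereas 49.7% of genes passed in the data. The recovered shares therefore need not hold for the data.

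The 7 genes and all lists were chosen with earlier results of these data known. From each list the text names up to 4 genes with the largest absolute log2 fold changes among those that passed in CYT against untreated and in IL-1βlow + CYT against CYT, and always Hspa5, Atf4 and Ddit3. Eif2ak2, Eif2ak4, Sdf2l1, Ern2 and Bloc1s1 were added after their values were seen, and Nupr1, Calr, Canx and Dnajb11 for their promoters. The nearest profiles were the 3 highest Pearson correlations per gene. The labels give no pairing of replicate numbers. Deviations from the group mean correlated between same-numbered libraries at 0.19 to 0.70 in all pairs among IL-1βlow, CYT and IL-1βlow + CYT. In pairs with untreated libraries the correlation was -0.26 to 0.20. Differently numbered libraries were not compared, so pairing was not tested. The fit without the block was kept for all comparisons, and the blocked value is given where it changed a call. Replicates differed by more than sampling noise (a chi-square of at least 7.11 per degree of freedom), so none was counted as a repeat. The SE of a fitted change was its absolute log2 fold change over the square root of the test's F value. Intervals used that SE with the test's total degrees of freedom, prior and residual, and include the spread between libraries. A further β-cell marker is not reported here. Reads carried no molecular identifiers. Promoters came from RefSeq (GRCr8), another build than that of the counts, and were used for sequence only.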

Additional observations from a re-analysis of the deposited data

Results flagged for a closer look

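The CYT response differed between cells with and without preconditioning for 3 of the 7 genes in the interaction test (edgeR's quasi-likelihood test, Benjamini-Hochberg adjustment over all genes tested). The response of Ern1 was 2.31 on the log2 scale without preconditioning and 0.14 with it, a difference of -2.17 (adjusted p = 4.13e-07). That of Atf6 was 0.98 and -0.10, a difference of -1.09 (adjusted p = 5.57e-06). That of Xbp1 was 0.21 and -0.32, a difference of -0.53 (adjusted p = 0.00470), and this was the 1 of the 3 that did not pass under every alternative. In IL-1βlow + CYT cells Xbp1 was the only one of the 7 whose libraries lay below those of both unchallenged groups. Over all genes 37.3% had no overlap with the untreated libraries and 27.1% had none with the IL-1βlow libraries. The share of genes below both groups was not counted. Summed β-cell markers were at 10636 to 10935 CPM in CYT and 15474 to 20066 CPM in IL-1βlow + CYT libraries, and their part in these differences was not tested.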

How the results depend on the processing

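Of 826 values of the 7 genes under alternative settings, 767 kept their direction and side of the threshold, 29 newly passed, 3 no longer passed and 27 changed sign. Ern1 and Atf6 passed in CYT against untreated, and Ern1, Xbp1, Atf6 and Eif2ak3 in IL-1βlow + CYT against CYT, under all 20 alternatives. With CYT the 2 genes that passed became 4 (with Atf6b and Eif2ak3) by exactTest, with a replicate block or at a threshold of 0.05, 3 (with Eif2ak3) with RLE factors, by DESeq2, without the filter or with only 2 groups in the fit, and 2 to 5 when each library was left out in turn (5 without CYT library 1, 4 without IL-1βlow + CYT library 3). Past the fold minimum the 1 gene became 2 (with Atf6) with RLE factors, DESeq2, no filter or only 2 groups in the fit, and 1 to 2 with a library left out. For IL-1βlow + CYT against untreated, 0 became 1 (Xbp1) without scaling, by DESeq2 or exactTest, with at least 10 counts in every library, with only 2 groups, with the replicate block or at 0.05, and 0 to 1 with a library left out (1 without IL-1βlow library 1 or 2 or CYT library 1 or 2). Against IL-1βlow cells it became 1 (Xbp1) with the replicate block or at 0.05. More of all 14324 genes passed in some of these settings too. With CYT 7116 passed in the main fit, 7630 by exactTest, 8229 with the block and 7431 by DESeq2. For IL-1βlow + CYT against untreated these numbers were 1972, 2486, 2850 and 2426. Against IL-1βlow cells 1175 passed in the main fit and 1693 with the block. Shares at 0.05 and past the fold minimum were not counted for these settings.

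With the replicate block, Eif2ak3 with CYT gave 0.48 (adjusted p = 0.00011), Atf6b -0.38 (0.00363), Xbp1 -0.35 against untreated (0.00251) and -0.32 against IL-1βlow (0.00732), and the interaction of Eif2ak3 -0.66 (0.000394). In the comparison of IL-1βlow + CYT with CYT the block changed no call. Without the filter Mbtps2 passed between CYT and IL-1βlow + CYT (-0.55, adjusted p = 0.00514).

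Sign changes were all in values that had not passed. For IL-1βlow against untreated, Atf6 gave 0.0084 with RLE factors, 0.010 without scaling, 0.0088 by DESeq2, 0.014 without the filter and -0.034 to 0.018 with a library left out. There Mbtps1 gave -0.0022 with at least 10 counts, -0.0041 with only 2 groups, -0.0018 with the replicate block and -0.092 to 0.044 with a library left out. With a library left out, Xbp1 there gave -0.064 to 0.0083, Atf6b -0.067 to 0.072 and Eif2ak3 -0.16 to 0.071. In the other comparisons, also with a library left out, Mbtps1 with CYT gave -0.0091 to 0.11, Ern1 in IL-1βlow + CYT against untreated -0.0018 to 0.14, Mbtps2 in IL-1βlow + CYT against IL-1βlow -0.085 to 0.50 and the interaction of Mbtps2 -0.34 to 0.25. The cause was not tested. Mbtps2 had 113 to 357 counts per library, and its coefficient of variation within a group was 15.7 to 36.5%. No scaling moved the median of all genes by over 0.1.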
